A study of Mus musculus with 20 samples.

Results

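Myostatin, activin and BMP signalling was followed through 10 genes in overloaded mouse plantaris: the ligand genes Mstn, Gdf11, Inhba and Bmp6, the inhibitor genes Fst and Fstl3, the receptor genes Acvr2b and Acvr1b, and the intracellular genes Smad7 and Id1. They were chosen by name, as members of these pathways, with earlier results of these data known. All 10 were found among the 54532 Ensembl genes of the count tables. RNA-seq was performed on plantaris muscles of male C57BL/6J mice aged 5 months, 10 days after sham surgery or mechanical overload (MOV), in which part of the neighbouring synergist muscles is removed on both sides. During surgery the left plantaris was injected with a scramble-control lentivirus and the right plantaris with a lentivirus carrying a miR-1 mimic, so that no group was free of virus. Each of 4 groups held 5 libraries, named sham control and sham mimic after sham surgery and MOV control and MOV mimic after overload, and sham and MOV were different mice. Both viruses used a CMV promoter, which is not restricted to muscle fibers, and carried TurboGFP as a reporter, and the control and mimic libraries of the same surgery came from opposite legs of the same mice, although the labels do not say which libraries share a mouse.

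Myostatin, GDF11 and the activins are secreted as dimers that bind type II receptors such as ActRIIB, which recruit type I receptors such as ALK4 and lead to phosphorylation of Smad2 and Smad3; in skeletal muscle, myostatin made by the fibers is known for holding back muscle mass. Follistatin and follistatin-like 3 bind myostatin and activins outside the cell and keep them from their receptors. BMPs act through Smad1, Smad5 and Smad9, with Id1 as a classic target gene, and Smad7 is an inhibitory Smad that is induced by the pathway and feeds back on it.

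Total counts ran from 12036360 to 23056525 per library, with the lowest total in MOV mimic replicate 4. Levels are in CPM, reads on a gene scaled by library total and by TMM factors from the 20 libraries, and since CPM is not corrected for gene length, levels are compared only between libraries of the same gene. Each comparison was tested with edgeR's quasi-likelihood test over all genes that passed a filter on low counts, and a gene was called at an adjusted p under 0.05. All 10 genes passed that filter in every comparison. Muscle fiber markers were high throughout, with the 11 markers summing to between 75970 and 208299 CPM. Marker sums also varied between libraries of a group. The 11 satellite cell and myoblast markers summed to between 101 and 744 CPM in sham control, 119 and 1650 CPM in sham mimic, 337 and 1420 CPM in MOV control and 115 and 1315 CPM in MOV mimic. Much of this sum came from the developmental myosins Myh3 and Myh8, with 1035 and 465 of the 1650 CPM in sham mimic replicate 2, whereas Pax7, the defining satellite cell marker, ran from 2.81 to 5.13 CPM in sham control and from 6.38 to 14.0 CPM in MOV control, and overlapped with the mimic, at 2.31 to 10.1 CPM in sham and 2.91 to 7.66 CPM after MOV. The median of 10 of the 11 was higher in MOV control than in sham control, all but Chodl (11.5 and 14.8 CPM). The sum of the 10 fibroblast markers was lowest of sham control in replicate 1, at 1018 CPM against up to 10899 CPM in replicate 3. Sham mimic replicate 1 had the lowest sum of its group, at 1513 CPM against up to 9707 CPM. These 2 libraries also had the highest muscle fiber sums of the series, 208299 and 203204 CPM. Collagen genes carried much of the fibroblast sums, with Col3a1 at 311 CPM in sham control replicate 1 and 4140 CPM in replicate 3. Pdgfra differed less between these (22.8 and 33.2 CPM), and Dpep1 was higher in replicate 1 (16.5 and 12.1 CPM). In sham mimic, Dpep1 was highest in replicate 1, at 21.6 CPM.

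In muscles with control virus, Mstn and Bmp6 stood lower after MOV than after sham surgery in every library, and Fst and Gdf11 had higher means after MOV with overlapping libraries. None of the 10 genes passed edgeR's adjusted threshold in MOV control against sham control, where 0.00668% of the genes tested passed it, a single gene, Nos1. DESeq2, the count test run beside it, called 2 of the 10, Mstn and Bmp6, both lower, where it called 6.10% of all genes. Libraries of the groups did not overlap for the same 2 genes, beside 4.89% of all genes, and 3 of the 10, Mstn, Bmp6 and Fst, had an unadjusted p under 0.05 in edgeR, beside 18.2% of all genes. The median log2 fold change was -0.03 over the 10 genes and 0.04 over all genes tested.

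**Figure D1:**
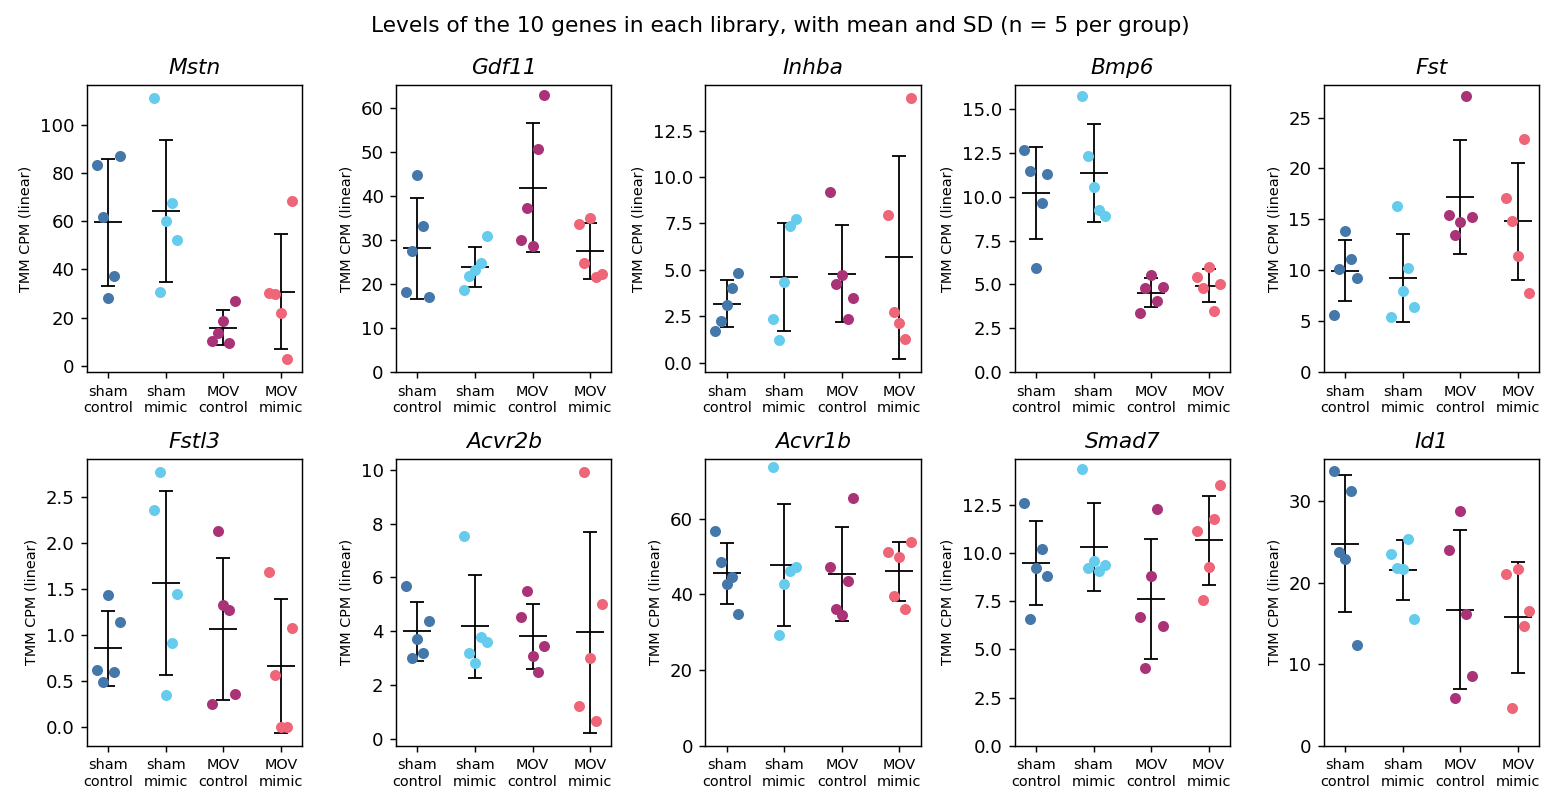
Levels of the 10 genes in TMM-scaled CPM (vertical axes, linear, a scale of its own for each gene) in the 20 libraries, with points for libraries, horizontal marks for the group mean and bars for the SD of 5 libraries. Mstn in MOV control sits between 9.52 and 27.1 CPM, below all sham control libraries, and Bmp6 sits at or below 5.98 CPM in every MOV library and above that level in every sham library but sham control replicate 3.

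Mstn encodes myostatin and lies at chr1:53061640-53068079 of GRCm38 in RefSeq. In sham control its level was 83.2, 62.0, 28.2, 37.4 and 86.9 CPM in replicates 1 to 5. In MOV control it was 10.4, 13.7, 18.7, 9.52 and 27.1 CPM. The highest MOV control library was thus just under the lowest sham control library, and the groups did not overlap. The means were 59.5 ± 26.4 CPM in sham control and 15.9 ± 7.21 CPM in MOV control (SD, n = 5 each). Mstn was 3.73-fold lower in MOV control, a log2 fold change of -1.90 (SE 0.35), with an adjusted p of 0.0554 in edgeR and of 3.47e-05 in DESeq2. The side of the threshold turned on single libraries, since edgeR gave an adjusted p of 0.0184 without sham control replicate 3 and of 0.0278 without MOV control replicate 5, while it was not called in the other 8 fits that left out a library, where the adjusted p reached 0.154. The log2 fold change ran from -2.17 to -1.72 over these 10 fits.

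With the mimic virus the Mstn libraries were spread more widely after MOV. The level was 111, 30.6, 60.0, 67.5 and 52.4 CPM in sham mimic (mean 64.3 ± 29.6, SD, n = 5). In MOV mimic it was 30.4, 29.7, 22.1, 2.87 and 68.5 CPM (mean 30.7 ± 23.9, SD, n = 5). Replicate 5 of MOV mimic lay within the sham libraries and replicate 4 lay under every other library of the series, so the groups overlapped. The log2 fold change of MOV mimic against sham mimic was -1.04 (SE 0.56, edgeR adjusted p = 0.441), and it was -1.59 without MOV mimic replicate 5 and -0.74 without MOV mimic replicate 4. Ranked by mean level, the groups ran from sham mimic to sham control, MOV mimic and MOV control, and the libraries of neighbouring groups in this order overlapped.

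Within groups, Mstn tended to be low in the libraries where embryonic myosin was high. Embryonic myosin was picked from the 11 satellite cell and myoblast markers, and not every marker of that list showed this. In sham mimic, Myod1 was highest in replicate 1 (35.6 CPM), the library with the most Mstn. In MOV mimic, Cdh15 was lowest in replicate 4 (15.7 CPM), the library with the least Mstn. Myh3, the embryonic myosin heavy chain of newly formed and regenerating fibers, was at 11.3, 58.0, 325, 281 and 14.7 CPM in sham control and at 760, 356, 433, 633 and 101 CPM in MOV control, in replicate order. In sham mimic Myh3 was at 10.5, 1035, 25.6, 117 and 141 CPM, and in MOV mimic at 453, 229, 277, 571 and 4.43 CPM. The library with the least Myh3 held the most Mstn within sham mimic, within MOV control and within MOV mimic, and in sham control the 2 libraries with the least Myh3 held the most Mstn. The sham libraries with the highest Myh3, sham control replicates 3 and 4 and sham mimic replicate 2, were the 3 lowest sham libraries for Mstn. Myh4, the myosin of the fastest fibers and one of the fiber markers, was at 57669, 36013, 20228, 27173 and 35912 CPM in sham control and at 10456, 11997, 15489, 7921 and 12789 CPM in MOV control, without overlap. With the mimic it was at 52967, 18570, 24104, 32241 and 35855 CPM in sham and at 13544, 22030, 14898, 6047 and 36305 CPM after MOV. In each of the 4 groups the library with the least Mstn was also the library with the least Myh4, and MOV mimic replicate 5 was highest in both within its group. Of the 11 fiber markers, Myh1 (medians of 14186 CPM in sham control and 16717 CPM in MOV control) and Acta1 (32750 and 33354 CPM) had higher medians in MOV control and the other 9 lower ones, and sham control replicate 3, lowest of its group in Mstn and Myh4, was highest in Myh1, at 19034 CPM. The part of these fiber types in the difference between MOV and sham was not tested, and in whole muscle fewer cells of a type and less RNA per cell cannot be told apart.

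**Figure D2:**
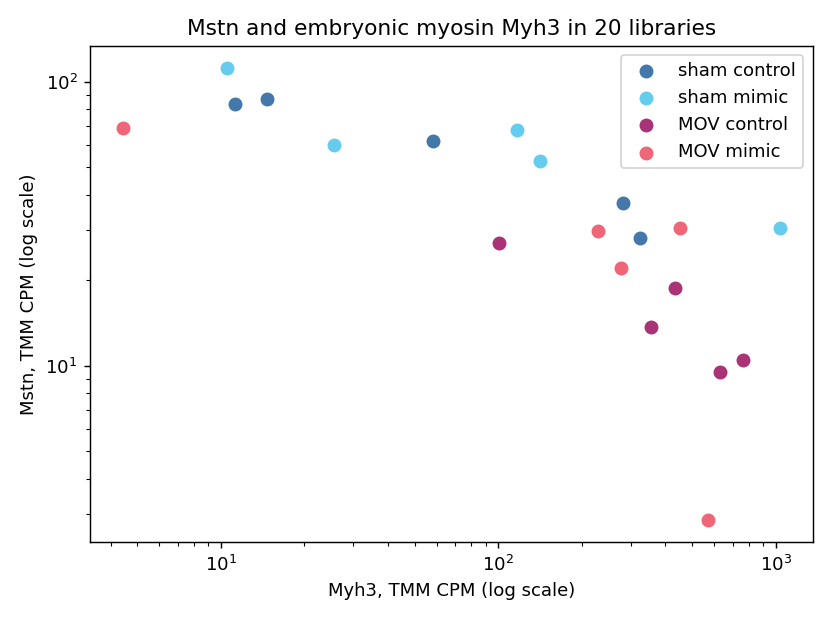
Mstn (vertical axis, CPM, log scale) against Myh3 (horizontal axis, CPM, log scale), with a point for each of the 20 libraries coloured by group. MOV mimic replicate 5, with 4.43 CPM of Myh3 and 68.5 CPM of Mstn, sits among the sham libraries at the upper left, and MOV mimic replicate 4, with 571 and 2.87 CPM, sits at the lower right.

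The promoter of Mstn is shown because Mstn gave the largest fitted difference of the 10 genes between MOV control and sham control. It covers 250 bases before to 50 after the start in RefSeq (GRCm38.p6, chr1:53061390-53061689, plus strand), with matches to the E-box letters CANNTG, which myogenic factors such as MyoD are known to bind, in capitals.
Mstn promoter: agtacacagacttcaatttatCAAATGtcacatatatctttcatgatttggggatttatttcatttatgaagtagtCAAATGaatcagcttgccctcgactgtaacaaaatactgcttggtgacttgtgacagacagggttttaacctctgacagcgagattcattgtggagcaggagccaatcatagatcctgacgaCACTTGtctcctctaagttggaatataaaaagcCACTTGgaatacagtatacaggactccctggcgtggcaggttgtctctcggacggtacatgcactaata
A script found 4 CANNTG matches, beginning 229, 174, 52 and 19 bases before the start, and a TATAAA beginning 29 bases before it. CANNTG reads the same on both strands and does not overlap the TATAAA here. At least 1 CANNTG was found in 72.3% of the 32851 promoters in the table and at least 4 in 6.49%, and TATAAA on either strand was found in 13.6%.

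Gdf11 encodes the closest relative of myostatin and lies at chr10:128880524-128891718. Its level was 18.1, 27.4, 44.6, 33.2 and 17.1 CPM in sham control (mean 28.1 ± 11.4, SD, n = 5) and 30.1, 37.2, 28.5, 50.7 and 62.9 CPM in MOV control (mean 41.9 ± 14.7, SD, n = 5). The highest libraries were MOV control replicates 4 and 5, but the groups overlapped. The log2 fold change was 0.58 (SE 0.29, edgeR adjusted p = 0.309), of the opposite sign to that of Mstn. In sham mimic it was at 18.6, 21.7, 23.1, 24.6 and 30.8 CPM and in MOV mimic at 33.7, 24.9, 35.0, 21.7 and 22.3 CPM, with a log2 fold change of 0.22 (SE 0.18, adjusted p = 0.631) between them.

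Inhba, which encodes the subunit of activin A, varied strongly between libraries. It ranged from 1.71 to 4.82 CPM in sham control, from 1.22 to 7.75 CPM in sham mimic, from 2.35 to 9.18 CPM in MOV control and from 1.25 to 14.3 CPM in MOV mimic. All groups overlapped, and the log2 fold change of MOV against sham was 0.60 (SE 0.39, edgeR adjusted p = 0.439) with control virus and 0.31 (SE 0.66, adjusted p = 0.870) with mimic virus. The first of these was 0.22 without MOV control replicate 1, the highest library of its group, and the second turned to -0.39 without MOV mimic replicate 5, the library with the highest level of the series. A RefSeq gene, B230303A05Rik, overlaps Inhba, and reads of the overlap cannot be assigned where the counting was not by strand.

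Bmp6, a BMP ligand, was the only one of the 10 genes whose MOV libraries lay under all sham libraries of the same virus, for control and for mimic virus alike. It lies at chr13:38345716-38500314. Its level was 12.7, 11.5, 5.95, 9.64 and 11.3 CPM in sham control (mean 10.2 ± 2.61, SD, n = 5) and 3.38, 4.78, 5.53, 4.06 and 4.86 CPM in MOV control (mean 4.52 ± 0.82, SD, n = 5). With the mimic it was 15.8, 12.3, 10.6, 9.23 and 8.88 CPM in sham (mean 11.4 ± 2.81, SD, n = 5) and 5.44, 4.77, 5.98, 3.46 and 5.01 CPM after MOV (mean 4.93 ± 0.94, SD, n = 5). The narrowest gap was between sham control replicate 3 and MOV control replicate 3. Bmp6 was 2.24-fold lower in MOV control than in sham control, a log2 fold change of -1.16 (SE 0.23), with an adjusted p of 0.0554 in edgeR and of 4.03e-04 in DESeq2. It was 2.27-fold lower in MOV mimic than in sham mimic, a log2 fold change of -1.19 (SE 0.23), with an adjusted p of 0.213 in edgeR and of 7.33e-04 in DESeq2. As for Mstn, edgeR called it in the control comparison without sham control replicate 3 (adjusted p = 0.0184) or MOV control replicate 5 (adjusted p = 0.0455) and in none of the other 8 such fits, where the adjusted p reached 0.154. In the fits without these 2 libraries edgeR called 426 and 318 of all genes, in place of 1. The difference between the 2 fitted responses was -0.03 (SE 0.32).

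The summed levels of vessel markers, which were not tested, had lower medians after MOV, though not each marker did. The 10 endothelial markers, all with counts in every group, summed to between 388 and 476 CPM in sham control, 221 and 444 CPM in MOV control, 422 and 544 CPM in sham mimic and 331 and 388 CPM in MOV mimic. The 7 pericyte and smooth muscle markers summed to between 479 and 550, 240 and 540, 485 and 634, and 351 and 433 CPM in the same order of groups. These sums did not overlap between sham mimic and MOV mimic and overlapped between sham control and MOV control, and their part in the lower Bmp6 level was not tested. In MOV control the median was lower than in sham control for 9 of 10 endothelial markers, all but Vwf, and for 4 of 7 pericyte and smooth muscle markers. Rgs5, at a median of 331 CPM in sham control and 175 CPM in MOV control, carried much of the second sum, while Cspg4 (13.0 and 26.2 CPM), Notch3 (21.4 and 27.8 CPM) and Acta2 (95.2 and 115 CPM) had higher medians in MOV control. Genes 4930579J19Rik and Txndc5 overlap Bmp6 in RefSeq.

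The promoter of Bmp6 is shown beside that of Mstn because DESeq2 called these genes and none of the other 8 in MOV control against sham control (GRCm38.p6, chr13:38345466-38345765, plus strand, CANNTG in capitals).
Bmp6 promoter: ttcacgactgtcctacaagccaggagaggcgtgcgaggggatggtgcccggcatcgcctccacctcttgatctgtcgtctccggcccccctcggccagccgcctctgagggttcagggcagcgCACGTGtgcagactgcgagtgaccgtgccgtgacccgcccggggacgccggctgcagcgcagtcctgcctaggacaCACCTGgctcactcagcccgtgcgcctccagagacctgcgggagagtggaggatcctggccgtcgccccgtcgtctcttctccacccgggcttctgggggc
It held 2 CANNTG matches, beginning 127 and 51 bases before the start, and at least 2 were found in 39.6% of all promoters. No TATAAA was found in this window. The letters GGCGCC, known as a site read by BMP Smads, were found in neither of these 2 windows and in 11.9% of all promoters. Promoters of Fst, Smad7 and Id1 were not analysed here.

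Fst, which encodes follistatin, lies at chr13:114452262-114458989. Its level was 5.60, 10.1, 13.8, 11.1 and 9.26 CPM in sham control (mean 9.97 ± 2.98, SD, n = 5) and 15.4, 13.4, 14.7, 27.1 and 15.2 CPM in MOV control (mean 17.2 ± 5.60, SD, n = 5). All MOV control libraries but replicate 2 lay above the highest sham control library. The log2 fold change was 0.79 (SE 0.25), with an unadjusted p of 0.00816, an adjusted p of 0.131 in edgeR and of 0.0609 in DESeq2. In sham mimic Fst was at 5.40, 16.3, 8.01, 10.2 and 6.42 CPM and in MOV mimic at 17.1, 14.8, 11.4, 22.9 and 7.73 CPM. These groups overlapped more widely, with sham mimic replicate 2 above 3 of 5 MOV mimic libraries, and the log2 fold change was 0.68 (SE 0.33, edgeR adjusted p = 0.397). Sham mimic replicate 2 and MOV control replicate 4, the highest Fst libraries of their groups, were also high in Myh3, and the part of this in the Fst values was not tested. A RefSeq gene, Gm41074, overlaps Fst.

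Fstl3, the follistatin-like inhibitor, was near the lower end of detection. Its counts ran from 8 to 27 in sham control, 7 to 48 in sham mimic, 5 to 49 in MOV control and 0 to 33 in MOV mimic, and its levels reached at most 2.78 CPM. In MOV mimic replicates 3 and 4 no read was counted, which allows up to 0.191 and 0.221 CPM, as 3 counts on the same TMM scale, for counting error only. The log2 fold change of MOV against sham was 0.33 (SE 0.59, edgeR adjusted p = 0.805) with control virus and -1.18 (SE 0.97, adjusted p = 0.618) with mimic virus, where it ran from -1.86 to -0.86 as each library was left out. The Prss57 gene overlaps Fstl3, so these low counts are uncertain.

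Neither receptor gene was called between MOV and sham, and their fitted differences were close to 0. Acvr1b encodes ALK4, the type I receptor for activins and myostatin, and its mean was 45.6 ± 8.02 CPM in sham control, 47.8 ± 16.2 CPM in sham mimic, 46.2 ± 7.80 CPM in MOV mimic and 45.4 ± 12.4 CPM in MOV control (SD, n = 5 each). Its fitted log2 fold change in MOV control against sham control was between -0.37 and 0.37 at 2 SE on either side. Acvr2b encodes the type II receptor ActRIIB and ranged from 2.99 to 5.68 CPM in sham control, 2.80 to 7.53 CPM in sham mimic, 2.48 to 5.48 CPM in MOV control and 0.66 to 9.92 CPM in MOV mimic. Its log2 fold change was -0.05 (SE 0.29) in MOV control against sham control, and -0.04 (SE 0.60) in MOV mimic against sham mimic, where the interval of 2 SE on either side ran from -1.24 to 1.15. The wide MOV mimic range came from replicate 2, the highest library of the series, and replicates 1 and 4, the lowest.

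Smad7 and Id1, which report on signalling inside the cell, were measured in the same libraries. Smad7 was at 12.6, 6.60, 9.25, 10.2 and 8.82 CPM in sham control and at 6.71, 4.04, 8.83, 12.3 and 6.22 CPM in MOV control, with a log2 fold change of -0.31 (SE 0.28, edgeR adjusted p = 0.592). It was at 14.4, 9.21, 9.58, 9.05 and 9.38 CPM in sham mimic and at 11.1, 7.58, 9.29, 11.8 and 13.6 CPM in MOV mimic, with a log2 fold change of 0.06 (SE 0.21, adjusted p = 0.921). The groups overlapped in both comparisons.

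Id1, an inhibitor of myogenic transcription factors that BMP signals induce, was at 33.7, 23.8, 22.9, 31.3 and 12.3 CPM in sham control and at 24.0, 5.91, 28.8, 16.1 and 8.57 CPM in MOV control. It was at 23.5, 21.8, 21.7, 25.3 and 15.5 CPM in sham mimic and at 21.1, 4.68, 21.6, 14.7 and 16.5 CPM in MOV mimic. The lowest libraries were those of replicate 2 of the MOV groups, and all groups overlapped. The log2 fold change was -0.56 (SE 0.39, edgeR adjusted p = 0.475) with control virus and -0.45 (SE 0.32, adjusted p = 0.562) with mimic virus.

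**Figure D3:**
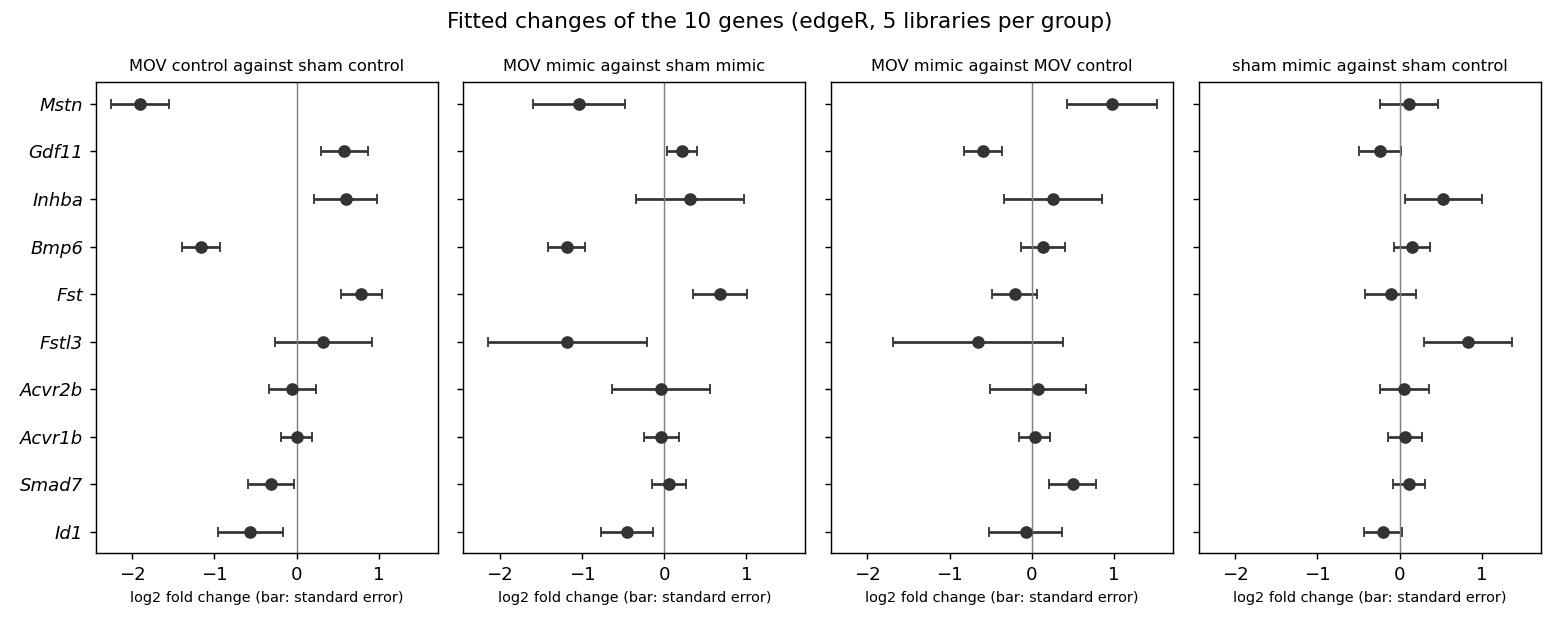
Fitted log2 fold changes (horizontal axis, edgeR) of the 10 genes in the 4 comparisons of groups, with points for the estimate and bars for 1 standard error on either side. Mstn and Bmp6 sit farthest below 0 in MOV control against sham control, at -1.90 and -1.16, and in MOV mimic against sham mimic Bmp6, Fstl3 and Mstn sit lowest, at -1.19, -1.18 and -1.04.

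In MOV mimic against sham mimic, 0 of the 10 genes passed edgeR's adjusted threshold, as did 0% of all genes, and only Bmp6 had an unadjusted p under 0.05, beside 13.4% of all genes. DESeq2 called 1 of the 10, Bmp6, lower, where it called 1.49% of all genes. Bmp6 was also the single gene of the 10 whose libraries did not overlap, beside 2.73% of all genes.

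The comparison of MOV mimic with MOV control, the effect of the mimic virus in overloaded muscle, shares the MOV mimic libraries with MOV mimic against sham mimic and the MOV control libraries with MOV control against sham control, and it gave no call among the 10 genes with edgeR or DESeq2. The background was 0% of all genes in edgeR, 0.0197% in DESeq2 and 4.21% at an unadjusted p under 0.05 in edgeR, which of the 10 only Gdf11 reached. These fits did not pair the legs of a mouse, since the labels do not give the mouse. With a block on replicate number DESeq2 called 127 of all genes in place of 3, and none of the 10. Under the block Smad7 as well as Gdf11 had an unadjusted p under 0.05 in edgeR and in DESeq2. No member's libraries were apart, beside 0.762% of all genes. Gdf11 had a lower mean in MOV mimic, at 27.5 ± 6.36 CPM against 41.9 ± 14.7 CPM in MOV control (SD, n = 5 each), and MOV control replicates 2, 4 and 5 lay above all MOV mimic libraries. Its log2 fold change was -0.60 (SE 0.23), with an unadjusted p of 0.0227 and an adjusted p of 0.999 in edgeR. For Mstn the log2 fold change was 0.97 (SE 0.55, edgeR adjusted p = 0.999) and 0.43 without MOV mimic replicate 5. For Smad7 it was 0.50 (SE 0.29, adjusted p = 0.999), and for the other 7 genes it ran from -0.65 for Fstl3 to 0.26 for Inhba. Leaving out single libraries moved the value of Fstl3 between -1.32 and -0.23.

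By qPCR, the authors found no rise of miR-1 with the mimic virus in sham muscle and a smaller fall with it after MOV. In sham mimic against sham control, 0 of the 10 genes were called by edgeR or DESeq2. None had an unadjusted p under 0.05 in edgeR, and no groups were apart. Of all genes 0% were called by either tool, 1.72% had an unadjusted p under 0.05 and 0.339% did not overlap. The largest fitted differences were 0.84 (SE 0.53) for Fstl3 and 0.53 (SE 0.47) for Inhba on the log2 scale. The difference of the 2 overload responses, tested as an interaction of surgery and virus over 20 libraries, gave 0 calls among the 10 genes in edgeR and in DESeq2 and 0 at an unadjusted p under 0.05, beside 0%, 0.00619% and 2.64% of all genes. For Mstn it was 0.84 (SE 0.71) on the log2 scale, and 2 SE on either side ran from -0.57 to 2.26. The value was 0.32 without MOV mimic replicate 5. An equal, a smaller and a larger response with the mimic could thus not be told apart in these libraries.

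Sequences that pair with the seed of miR-1 were looked up in the 10 genes because the virus carried a mimic of this miRNA. miR-206, the other muscle miRNA of the same family, has the same seed as miR-1, and its mature sequence in RefSeq (GRCm38.p6, chr1:20679055-20679076, plus strand) is printed with the seed, bases 2 to 8, in capitals. The windows of 30 bases come from the longest annotated 3′ UTR of each gene in transcripts of an older build (NCBIM37), with capitals for the 6 bases that pair with bases 2 to 7 of the miRNA, for the ligands and the inhibitor described above.
miR-206-3p: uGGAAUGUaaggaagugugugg
Mstn: catacacattgcCATTCCtattataattgg
Gdf11, first: agccctggtcccCATTCCtcaagccctaga
Gdf11, second: aagtcacccattCATTCCtcccacaatcct
Gdf11, last: ctcctctctggcCATTCCtcatcctttttt
Fst: accatttaagtcCATTCCtcactatgcaca
Bmp6, first: tctttcaggttcCATTCCcagcaagggcag
Bmp6, last: tccctacctaagCATTCCatggctcagggc
The matches begin 514 bases into the UTR of Mstn, 62, 1459 and 2095 bases into that of Gdf11, 472 bases into that of Fst, and 472 and 869 bases into that of Bmp6, and the last of these is followed by an A. The 7 letters ACATTCC, which pair with the whole seed, were found in 0 of the 10 genes and in 9.12% of 20007 genes with a UTR. CATTCC, the 6-letter match, was found in 5 of the 10, the 4 shown and Fstl3, against 27.4% of all genes. Of the 7 with a UTR of at least 1000 bases 5 held it, against 46.5% of the 9219 such genes. The UTRs of Inhba and Acvr2b had only 82 and 40 bases in these transcripts. Of the genes with a match, Gdf11, Fst and Fstl3 had fitted values below 0 in MOV mimic against MOV control and Mstn and Bmp6 above 0, and none was called.

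**Figure D4:**
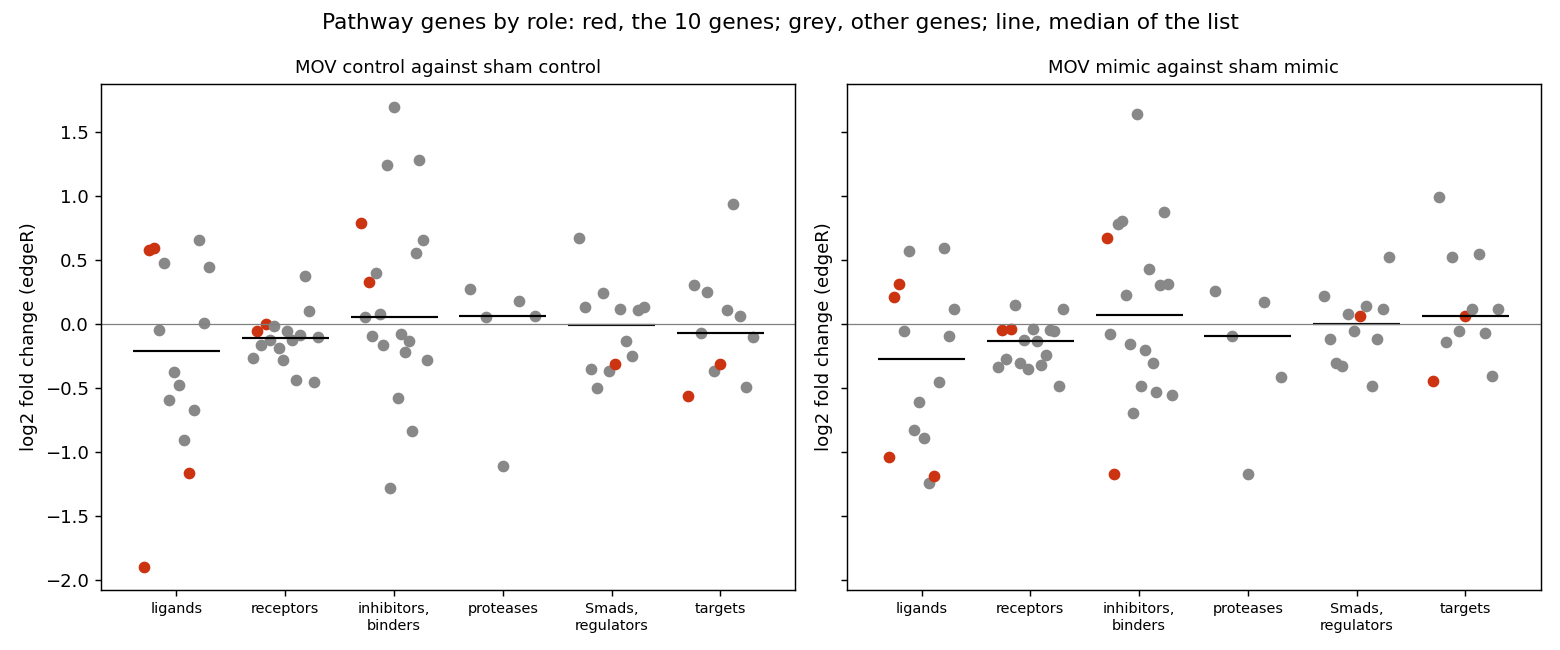
Fitted log2 fold changes (vertical axis, edgeR) of the pathway genes in 6 lists by role, in MOV control against sham control (left) and MOV mimic against sham mimic (right), with red points for the 10 genes, grey points for other genes and lines for the median of each list. Medians lie between -0.21 for the ligands and 0.06 for the proteases on the left, with single genes reaching -1.90 (Mstn) and 1.70 (Wfikkn1).

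The wider pathway was taken as 6 lists by role, 83 genes in all, of which 73 were tested in MOV control against sham control. edgeR called 0 of them, 6 had an unadjusted p under 0.05 with higher and 8 with lower values after MOV, and DESeq2 called 3 higher and 4 lower. Over all genes the shares were 18.2% at an unadjusted p under 0.05 and 6.10% called by DESeq2, so that the 14 of 73 at the unadjusted threshold were near the background. Among the ligands, 14 of 20 were tested, with a median log2 fold change of -0.21, and DESeq2 called Mstn and Bmp6. Among the receptors and co-receptors, 16 were tested, with a median of -0.11, and none was called by either tool. The medians were 0.05 over 19 extracellular inhibitors and binders, 0.06 over 5 activating proteases, -0.01 over 12 Smads and intracellular regulators and -0.07 over 11 target genes, beside 0.04 over all genes tested.

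The 5 other genes that DESeq2 called are named here after their values were seen. Wfikkn1, a secreted inhibitor of myostatin and GDF11, had a mean of 0.413 ± 0.168 CPM in sham control and 1.35 ± 0.386 CPM in MOV control (SD, n = 5 each), and its libraries did not overlap. These levels were near the lower end of detection and rested on 3 to 10 counts per library in sham control and 14 to 36 in MOV control. Its log2 fold change was 1.70 (SE 0.44), with an adjusted p of 0.0770 in edgeR and 0.0124 in DESeq2. Pcsk6, a proprotein convertase of the kind that cleaves the precursors of these ligands, had means of 28.0 ± 4.11 CPM and 12.8 ± 7.51 CPM, again without overlap, and a log2 fold change of -1.11 (SE 0.34), with an adjusted p of 0.124 in edgeR and 0.0270 in DESeq2. Smad4, the partner shared by all receptor-activated Smads, had means of 48.3 ± 8.19 CPM and 34.0 ± 2.96 CPM without overlap, with a log2 fold change of -0.50 (SE 0.13), and Smad1, a BMP Smad, and Ltbp3, which binds latent TGF-beta, had higher means in MOV control with log2 fold changes of 0.68 (SE 0.20) and 0.66 (SE 0.19). The fitted values in MOV mimic against sham mimic were 1.65 (SE 0.75) for Wfikkn1, -1.17 (SE 0.51) for Pcsk6, -0.33 (SE 0.25) for Smad4, 0.22 (SE 0.21) for Smad1 and 0.32 (SE 0.17) for Ltbp3, and neither tool called any of them there.

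With mimic virus, in MOV against sham, edgeR called 0 of 72 pathway genes tested, with 5 higher and 5 lower at an unadjusted p under 0.05, and DESeq2 called Bmp6 alone, shares near the 13.4% and 1.49% of all genes. Between MOV mimic and MOV control 0 of 72 were called by either tool. The pathway genes with an unadjusted p under 0.05 there were Gdf11 and the target gene Id2, which was at 19.3 ± 8.45 CPM in MOV mimic and 10.6 ± 3.38 CPM in MOV control (SD, n = 5 each), with a log2 fold change of 0.86 (SE 0.32) and an adjusted p of 0.999 in edgeR. The summed level of the 14 leukocyte and macrophage markers also had a higher median in MOV mimic, at 1519 CPM (720 to 1978) against 1076 CPM (422 to 1333). Cd74 made up much of these sums, with medians of 751 CPM in MOV mimic and 314 CPM in MOV control. Ptprc was at medians of 59.4 and 31.4 CPM, while Lyz2 (328 and 321 CPM), Mrc1 (33.0 and 31.3 CPM) and Cd14 (6.46 and 6.46 CPM) were nearly level. The part of these markers in the difference of Id2 was not tested. In sham mimic against sham control 0 of 71 were called by either tool. In the interaction 0 of 74 were called by either tool, and 1, the ubiquitin ligase gene Smurf2, had an unadjusted p under 0.05.

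The genes whose pattern over the 20 libraries came closest to that of Mstn were found by the root mean square difference of log2 CPM, each gene centred on its own mean, among 14706 genes with a symbol. They were Amd-ps3 (0.32), Dusp26 (0.34), Fbp2 (0.48) and 1110067D22Rik (0.49), where the median gene stood at 1.32. Dusp26, a dual-specificity phosphatase, had means of 26.5 CPM in sham control, 23.8 CPM in sham mimic, 12.1 CPM in MOV mimic and 8.30 CPM in MOV control. Fbp2, the muscle fructose bisphosphatase, had means of 22.0, 19.2, 12.2 and 7.07 CPM in the same order. Amd-ps3 is named as a pseudogene, and its reads may come from a near-identical gene. For Fst the closest were 2210403K04Rik (0.23), Ift122 (0.25), Arl6ip5 (0.25) and Sesn3 (0.30), with the median gene at 0.75.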

How the data were processed

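RNA-seq was performed by the authors on 20 plantaris libraries, 5 per group. The authors deposited unnormalized counts for Ensembl genes, in separate tables for control and mimic libraries, made by trimming (Cutadapt 4.4, Trim Galore 0.6.10), alignment to GRCm38 (HISAT2 2.0.5) and counting (featureCounts 1.5.0-p3). The annotation release and the handling of strand and of reads with several alignments are not given in the sources used here. Groups followed the sample labels. The 10 libraries of each comparison were fitted over all genes with edgeR 4.0.16 (R 4.3.3; TMM, filterByExpr, quasi-likelihood test, two-sided, Benjamini-Hochberg adjustment, threshold 0.05), and the interaction over 20 libraries. DESeq2 1.42.0, its size factors in edgeR, no filter, all 20 libraries, a replicate block and leaving out each library were alternatives. The fit of MOV control against sham control was also run on simulated counts with known changes, and the outcome is not given here. Total counts ran from 12036360 to 23056525 per library. Replicates were muscles of separate mice within a group.

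The 10 genes and all lists were chosen with earlier results of these data known. Named were the 10 genes, up to 4 other genes of each role list called in MOV control against sham control (edgeR called none), any pathway gene called in the comparisons of mimic with control or in the interaction, and the 4 genes nearest to Mstn and to Fst. Genes named outside this rule are those called by DESeq2 alone, and Id2 and Smurf2 as pathway genes with an unadjusted p under 0.05. Also outside it are the genes nearest to Bmp6 and Id1, genes of fits with few calls, and single cell type markers such as Myh3 and Myh4. Sequences are from RefSeq (GRCm38.p6), where promoters of 7 of the 10 genes were found, and from GENCODE transcripts on NCBIM37. Leukocyte, tendon, Schwann and adipocyte markers were also summed. Their median CPM is given in the order sham control, sham mimic, MOV mimic and MOV control. It was 1249, 1019, 1519 and 1076 for leukocytes and 689, 767, 843 and 701 for tendon. It was 42.9, 43.5, 47.0 and 69.4 for Schwann cells and 191, 167, 132 and 106 for adipocytes. The adipocyte sum was mostly Fabp4, with medians of 170 CPM in sham control and 98.6 CPM in MOV control. Adipoq was at medians of 2.26 and 0.304 CPM in these groups.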

Additional observations from a re-analysis of the deposited data

Results flagged for a closer look

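In 3 of the 40 combinations of gene and group, a library lay far from the other 4 by Dixon's ratio (critical value 0.71 for 5 libraries), where chance gives about 1 in 20 groups. Fst in MOV control had 27.1 CPM in replicate 4, against 13.4 to 15.4 CPM in the others. Acvr2b in sham mimic had 7.53 CPM in replicate 1, against 2.80 to 3.77 CPM in the others. Smad7 in sham mimic had 14.4 CPM in replicate 1, against 9.05 to 9.58 CPM in the others. Both of these values are from sham mimic replicate 1, which also had the lowest fibroblast marker sum of its group (1513 CPM, against 5554 to 9707 CPM in the others) and the highest muscle fiber marker sum (203204 CPM, against 126038 to 154169 CPM), and the part of these in the 2 values was not tested. Without MOV control replicate 4 the log2 fold change of Fst in MOV control against sham control was 0.54, in place of 0.79.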

How the results depend on the processing

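In MOV control against sham control, the 0 of 10 genes and 0 pathway genes called became 2 and 7 with DESeq2, 2 and 2 without the filter, 1 and 1 with all 20 libraries in the fit, and 0 to 2 and 0 to 3 as each library was left out. The single call over all genes became 913, 388 and 36 under the first 3 settings and 0 to 426 as libraries were left out, with 426 without sham control replicate 3 and 318 without MOV control replicate 5. In MOV mimic against sham mimic, DESeq2 called 1 of the 10, 1 pathway gene and 223 genes in all, the fit without the filter called 1 gene (Igfn1), all 20 libraries gave 3 (Slc7a6os, Pm20d2 and Snord91a), and leaving out libraries gave 0 to 101, with 101 without MOV mimic replicate 5. In MOV mimic against MOV control DESeq2 called 3 genes (Ypel2, Entpd4 and Snord91a) and the fit on 20 libraries 1 (Snord91a), and in the interaction DESeq2 called 1 (Snord91a). The cause of these differences was not tested. The direction of Mstn, Bmp6, Fst and Gdf11 between MOV and sham held in all settings tried.

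Equal replicate numbers were not taken as pairs, since the labels do not give the mouse and the correlation of deviations was over 0.1 for only 3 of 5 numbers in MOV (0.0524 to 0.338, 8 of 10 libraries closest to their own number) and 4 of 5 in sham (-0.00112 to 0.726, 5 of 10). With the replicate block in edgeR, 0 of the 10 were called in any comparison and 1 gene, mmu-mir-2134-4, in MOV control against sham control. Sham and MOV were different mice, so a block on the number across surgeries has no shared mouse behind it. With the replicate block in DESeq2, 2 of the 10, 7 pathway genes and 722 genes were called in MOV control against sham control, 1, 1 and 114 in MOV mimic against sham mimic, 127 genes in MOV mimic against MOV control and 5 genes in the interaction (Gbp3, Arhgdib, Sepw1, H2-Ab1 and Snord91a). Signs turned under the block in edgeR and in DESeq2 for Acvr1b in MOV mimic against sham mimic (0.00367 and 0.00498), for Inhba (-0.18 and -0.19) and Acvr2b (-0.39 and -0.40) in MOV mimic against MOV control, and for Acvr2b (-0.39 and -0.38) and Acvr1b (0.0196 and 0.0366) in the interaction, where the value of Mstn was 0.52 and 0.47 in place of 0.84. Fstl3 was at -1.36 and -1.70 in MOV mimic against MOV control in place of -0.65, and at -1.95 and -2.12 in MOV mimic against sham mimic in place of -1.18, where Acvr2b was at -0.49 and -0.51 in place of -0.04. In MOV mimic against MOV control Mstn was at 0.63 and 0.60 under the block in place of 0.97, and Smad7 as well as Gdf11 had an unadjusted p under 0.05, with adjusted p of 0.686 and 0.535 for Smad7.

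Leaving out libraries also turned the sign of small fitted values, none of them called. In MOV control against sham control the log2 fold change ran from -0.0949 to 0.60 for Fstl3, -0.23 to 0.10 for Acvr2b and -0.17 to 0.0873 for Acvr1b. For MOV against sham with mimic virus it ran from -0.39 to 0.58 for Inhba, -0.72 to 0.26 for Acvr2b, -0.18 to 0.16 for Acvr1b and -0.0555 to 0.20 for Smad7. For mimic against control virus after MOV it ran from -0.44 to 0.63 for Inhba, -0.42 to 0.0101 for Fst, -0.61 to 0.35 for Acvr2b, -0.0503 to 0.20 for Acvr1b and -0.29 to 0.21 for Id1. In sham mimic against sham control it ran from -0.17 to 0.29 for Mstn, -0.38 to 0.0017 for Gdf11, -0.40 to 0.0526 for Fst, -0.25 to 0.21 for Acvr2b, -0.13 to 0.20 for Acvr1b and -0.0223 to 0.23 for Smad7. In the interaction it ran from -0.97 to 0.10 for Inhba, -0.31 to 0.19 for Fst, -0.66 to 0.33 for Acvr2b, -0.18 to 0.17 for Acvr1b, -0.11 to 0.13 for Bmp6 and -0.10 to 0.40 for Id1. Other values moved by over 1.5 times with the same sign, as for Id1 (-0.85 to -0.34) and Smad7 (-0.56 to -0.15) in MOV control against sham control and for Id1 (-0.59 to -0.21) in MOV mimic against sham mimic.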

Other observations

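After their values were seen, the genes nearest in pattern to Bmp6 and Id1 were also looked up by the measure used for Mstn. For Bmp6 they were Pdpr (0.21), Sdpr (0.26), Rgs5 (0.26) and Kcnj8 (0.27), with the median gene at 0.78. Rgs5 and Kcnj8 belong to the 7 pericyte and smooth muscle markers summed beside Bmp6, of which Cspg4, Notch3 and Acta2 had higher medians in MOV control than in sham control. Rgs5 had means of 297 CPM in sham control, 322 CPM in sham mimic, 171 CPM in MOV mimic and 168 CPM in MOV control, and Kcnj8 had means of 15.6, 14.0, 7.71 and 6.47 CPM in the same order. For Id1 they were 1300014I06Rik (0.44), Klf2 (0.47), Nr4a1 (0.50) and Gpihbp1 (0.50), with the median gene at 0.84. Klf2, a transcription factor induced by flow in endothelium, had means of 49.9, 51.6, 47.5 and 41.6 CPM, and Gpihbp1, the endothelial anchor of lipoprotein lipase, had means of 23.5, 23.6, 15.5 and 16.5 CPM in the same order.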
